A study of Mus musculus with 2 samples.

Results

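The phase II conjugation enzymes of mouse liver were examined by family in 2 spatial transcriptomics (ST) libraries. Members were chosen by gene symbol alone: the UDP-glucuronosyltransferases Ugt1a, Ugt2a and Ugt2b, the glutathione S-transferases of the classes Gsta, Gstk, Gstm, Gsto, Gstp, Gstt and Gstz, and the sulfotransferases Sult. The rule found 53 of the 19465 genes listed, of which 16 belong to glucuronidation, 20 to glutathione conjugation and 17 to sulfation. One section came from a mouse that lacks AEG-1 in myeloid cells (AEG-1ΔMAC, spelled AEG-1DMAC in the labels) and 1 from a floxed littermate without that deletion (AEG-1fl/fl). Both mice were on a C57BL/6/J background and carried the floxed gene Mtdh, which encodes AEG-1, and in AEG-1ΔMAC Cre recombinase driven by the Lyz2 (LysM) locus deletes it in myeloid cells such as macrophages while hepatocytes keep it. By the labels both animals were 27 weeks old and had received a high fat/high sugar diet (HF/HSD) for 20 weeks from 7 weeks of age. The study describes the ST assay as done on mice fed control diet, so which diet these mice ate is not settled here. The labels do not give their sex, and 4 Y-linked genes (Ddx3y, Eif2s3y, Kdm5d and Uty) were detected in both libraries, with summed levels of 115.7 and 110.6 CPM, as in male tissue.

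Phase II enzymes attach a polar group to bilirubin, bile acids, steroids, drugs and reactive electrophiles, which makes them easier to excrete in bile or urine. UDP-glucuronosyltransferases transfer glucuronic acid from UDP-glucuronic acid, glutathione S-transferases join glutathione to electrophiles, and sulfotransferases transfer sulfate from PAPS. Hepatocytes are the main site of all these reactions in liver, and much of drug metabolism is arranged along the lobule, with many enzymes richer around the central vein (zone 3, pericentral) than around the portal tract (zone 1, periportal).

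In the assay, probe pairs hybridised to fixed tissue are counted as unique molecular identifiers (UMIs) per spot, and each spot covers a patch of tissue in which cells of several types may lie. After filtering, AEG-1ΔMAC had 45453286 UMIs in 2140 spots, and AEG-1fl/fl had 50322850 UMIs in 2540 spots. Median spots had 20929.5 and 18285 UMIs, respectively. UMIs were summed over a library and scaled to its total as CPM. Each genotype had 1 library, so no test could be run, no p-value was computed, and the spread between mice is unknown. Every interval below is a 95% interval for counting error only. For the 6933 genes that averaged at least 10 CPM, the log2 ratio of AEG-1ΔMAC over AEG-1fl/fl had a median of 0.15 and 5th and 95th percentiles of -0.29 and 0.54. Values are therefore also given relative to that median. Mtdh itself had 66.3 CPM in AEG-1ΔMAC against 60.2 CPM in AEG-1fl/fl, which does not check a deletion restricted to myeloid cells. All 7 hepatocyte markers were above 10 CPM in both libraries.

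Together the 53 genes took 1.27% of UMIs in AEG-1ΔMAC compared with 1.02% in AEG-1fl/fl, and a median spot held 265 and 187 UMIs of them. Of the 53, 32 averaged 10 CPM or more (10, 17 and 5 genes of glucuronidation, glutathione conjugation and sulfation). The other 21 were below that level, and 7 of them, all sulfotransferases (Sult1c1, Sult2a2, Sult2a5, Sult2a6, Sult3a2, Sult6b1 and Sult6b2), had 0 UMIs in both libraries. Probes differ in how well they bind, and levels were therefore not compared between genes.

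One pair of glucuronosyltransferase genes of the same cluster shows why near-identical copies need care. The coding sequences of Ugt2b5 and Ugt2b38 were 97.0% identical in the GENCODE annotation, yet in both libraries Ugt2b5 was level along the lobule whereas Ugt2b38 was periportal (values below). The sequences shown are the 250 bases before the RefSeq start of each gene (build GRCm38.p6, minus strand, written 5′ to 3′). The sequence shown for Ugt2b5 lies at chr5:87140341-87140590 and that for Ugt2b38 at chr5:87424204-87424453. Capitals mark the 38 bases in each that had no identical partner when they were aligned with each other, and the remaining 84.8% were shared.
Ugt2b5: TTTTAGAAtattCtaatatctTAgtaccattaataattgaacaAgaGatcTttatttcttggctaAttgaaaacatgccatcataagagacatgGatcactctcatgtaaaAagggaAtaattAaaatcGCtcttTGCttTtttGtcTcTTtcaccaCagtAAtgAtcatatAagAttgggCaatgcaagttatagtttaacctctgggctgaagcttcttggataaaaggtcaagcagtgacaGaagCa
Ugt2b38: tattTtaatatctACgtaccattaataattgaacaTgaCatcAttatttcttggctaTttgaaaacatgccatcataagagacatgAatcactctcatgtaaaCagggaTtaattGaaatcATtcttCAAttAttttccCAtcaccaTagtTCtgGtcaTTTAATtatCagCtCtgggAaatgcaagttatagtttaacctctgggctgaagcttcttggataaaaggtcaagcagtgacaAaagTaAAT
How probes of this assay divide reads between such copies is not known here, so the separate counts of Ugt2b5 and Ugt2b38 are uncertain. A similar pair, Gstp1 and Gstp2 on chromosome 19, had 98.1% identical coding sequences. No other pair of members had coding sequences more than 95% identical, and Ugt2b37 was 94.7% identical to Ugt2b5.

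Glucuronidation genes were higher in AEG-1ΔMAC than in AEG-1fl/fl in 8 of 10 cases, compared with 5431 of the 6933 genes. All 8 also lay above the median of all genes. The family's median log2 ratio was 0.50, or 0.35 relative to all genes, and its summed level was 3755 CPM against 2606 CPM. Ugt2b1, a Ugt2b enzyme of the kind that acts on steroids and drugs, had 1371 CPM in AEG-1ΔMAC against 865.6 CPM in AEG-1fl/fl (log2 ratio 0.66, 0.65 to 0.68). Ugt2b35 had 223.3 and 136.9 CPM (0.71, 0.66 to 0.75). Ugt2b34 had 284.1 and 185.8 CPM (0.61, 0.57 to 0.65). These 3 genes were past 1.5-fold, the size used here to count a difference, on the higher side, against 4.3% of all genes compared. They stood at 1.58, 1.63 and 1.53-fold. All 3 fell below 1.5-fold with each of 3 other scalings of the libraries.

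Next in order came Ugt2b5, with 685.7 and 477.9 CPM in AEG-1ΔMAC and AEG-1fl/fl (log2 ratio 0.52, 0.50 to 0.55). Ugt1a1, the enzyme that conjugates bilirubin, had 311.1 and 217.9 CPM (0.51, 0.48 to 0.55). Ugt2b36 had 210.4 and 150.9 CPM (0.48, 0.44 to 0.52), and Ugt2a3 had 483.0 and 365.6 CPM (0.40, 0.37 to 0.43). Intervals of Ugt2b5, Ugt1a1 and Ugt2b36 overlapped, so their order cannot be read. Ugt1a6b, which conjugates planar phenols, stood near the median of all genes with 61.9 and 54.6 CPM (0.18, 0.10 to 0.26). Ugt1a5 went the other way, with 71.1 and 90.3 CPM (-0.35, -0.41 to -0.28), and so did Ugt2b38, with 36.3 and 45.9 CPM (-0.34, -0.43 to -0.25). When spots were weighted so that both libraries held equal shares of 5 strata along the lobule, Ugt2b38 moved to -0.03 while Ugt2b5 stayed at 0.51.

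The remaining glucuronidation genes were under 10 CPM. Ugt1a7c, Ugt1a2, Ugt2b37, Ugt1a10 and Ugt1a8 had from 32 to 325 UMIs a library. Ugt2a1, which is known from olfactory tissue, had 1 UMI in AEG-1ΔMAC and was at 0 in AEG-1fl/fl. The Ugt1a genes of chromosome 1 are alternative first exons joined to the same later exons, and their separate counts hold only where probes lie in a first exon, which the files do not show.

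Glutathione conjugation genes were not shifted as a family. Their median log2 ratio was 0.14, which is -0.00 relative to all genes, with 8 of 17 above the median of all genes and 9 below it. The median's sign turned to -0.01 under equal strata, and it stood between 0.00 and 0.02 with the 3 other scalings. The summed level was 7268 CPM in AEG-1ΔMAC against 6461 CPM in AEG-1fl/fl. Gstp1, a major Pi class enzyme of mouse liver, had 3369 and 2903 CPM (0.21, 0.20 to 0.23). Gsta3, an Alpha class enzyme that detoxifies aflatoxin epoxide in mice, had 1865 and 1682 CPM (0.15, 0.14 to 0.16). Gstm1, of the Mu class, had 562.4 and 551.0 CPM (0.03, 0.01 to 0.05). Gsta3 and Gstm1 were therefore within 0.12 of the median of all genes, and the sign of Gstm1 changed with each of the 3 other scalings. That of Gsta3 changed under equal strata, to -0.06.

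Past 1.5-fold were 2 of 17 glutathione conjugation genes, 1 higher (4.3% of all genes compared) and 1 lower (1.79%). Gstt3, of the Theta class, had 27.5 CPM in AEG-1ΔMAC against 14.0 CPM in AEG-1fl/fl (log2 ratio 0.97, 0.84 to 1.11). Gstp3 had 21.1 and 31.6 CPM (-0.59, -0.70 to -0.47), which is at the edge of 1.5-fold. Near-identical Gstp2, counted at 233 and 405 UMIs and so under 10 CPM, differed from Gstp1 in direction, but its counts are uncertain for the reason given above.

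Other genes of the Theta class were closer to the median of all genes than Gstt3: Gstt1 had 360.9 and 287.5 CPM (0.33, 0.30 to 0.36), and Gstt2 had 102.1 and 87.4 CPM (0.23, 0.17 to 0.28). Gstz1, the maleylacetoacetate isomerase of tyrosine breakdown, had 395.7 and 336.6 CPM (0.23, 0.20 to 0.26). Gsto1, of the Omega class, had 147.5 and 122.8 CPM (0.26, 0.21 to 0.31). Each of these 4 was higher in AEG-1ΔMAC, by less than 1.3-fold. Gstk1, the mitochondrial and peroxisomal Kappa class enzyme, was nearly equal at 84.7 and 84.3 CPM (0.01, -0.06 to 0.07). Gsta4, which conjugates the lipid peroxidation product 4-hydroxynonenal, was lower in AEG-1ΔMAC at 76.2 and 89.4 CPM (-0.23, -0.29 to -0.17).

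Mu class genes on chromosome 3 took both directions. Gstm7 had 79.4 and 95.5 CPM (-0.27, -0.33 to -0.20) and Gstm3 had 45.0 and 51.6 CPM (-0.20, -0.28 to -0.11). Gstm6 had 28.5 and 23.1 CPM (0.30, 0.19 to 0.42), and Gstm4 had 44.6 and 40.3 CPM (0.14, 0.06 to 0.23). Intervals of Gstm2, at 36.6 and 37.8 CPM (-0.05, -0.14 to 0.05), and Gstm5, at 16.9 and 15.8 CPM (0.09, -0.06 to 0.23), included no difference. Signs of Gstm2, Gstm4, Gstm5 and Gstm6 changed with the setting. Under equal strata along the lobule Gstm3 moved to -0.66 and Gstm2 to -0.52. Among the glutathione conjugation genes under 10 CPM, Gsto2 had 9 UMIs in each library and Gstt4 had 1.

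Sulfation held the members furthest apart between the libraries. Sult5a1 (chromosome 8) had 27.7 CPM in AEG-1ΔMAC against 8.11 CPM in AEG-1fl/fl, from 1261 and 408 UMIs, a log2 ratio of 1.77 (1.61 to 1.94) or 3.42-fold. It was the 1 member that reached a mean of 10 CPM through AEG-1ΔMAC alone. Sult1d1, which sulfates catecholamines, had 302.1 and 141.2 CPM (1.10, 1.06 to 1.14), or 2.14-fold. Sult2a8, which sulfates bile acids, had 1030 and 606.6 CPM (0.76, 0.74 to 0.78). These 3 genes were at least 1.5-fold higher, against 4.3% of all genes compared. They remained so with every scaling tried and under equal strata. Sult1b1, which acts on thyroid hormones and phenols, had 15.4 and 10.6 CPM (0.55, 0.38 to 0.71). Sult1a1, the main phenol sulfotransferase, was the exception at 299.8 and 314.9 CPM (-0.07, -0.10 to -0.04). The family's summed level was 1682 CPM in AEG-1ΔMAC against 1089 CPM in AEG-1fl/fl. Its median log2 ratio of 0.76 rests on 5 genes. Of the other sulfotransferases with any UMI, Sult1c2 had 220 and 293 UMIs and Sult2a7 had 79 and 75, and Sult1e1, Sult2b1 and Sult4a1 had at most 15.

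Over all 3 families, 7 of the 32 members measured were at least 1.5-fold higher in AEG-1ΔMAC, against 4.3% of all genes compared, and 1 was at least 1.5-fold lower, against 1.79%. The 7 were Ugt2b1, Ugt2b34, Ugt2b35, Gstt3, Sult1d1, Sult2a8 and Sult5a1, and the 1 was Gstp3. The median log2 ratio of the 32 was 0.23, which is 0.08 above that of all genes. At 2-fold the count was 2 higher, Sult5a1 and Sult1d1, against 1.27% of all genes, and 0 lower, against 0.519%. Sult5a1 is in both counts of higher members although it reached a mean of 10 CPM only through AEG-1ΔMAC, where it was high.

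**Figure D1:**
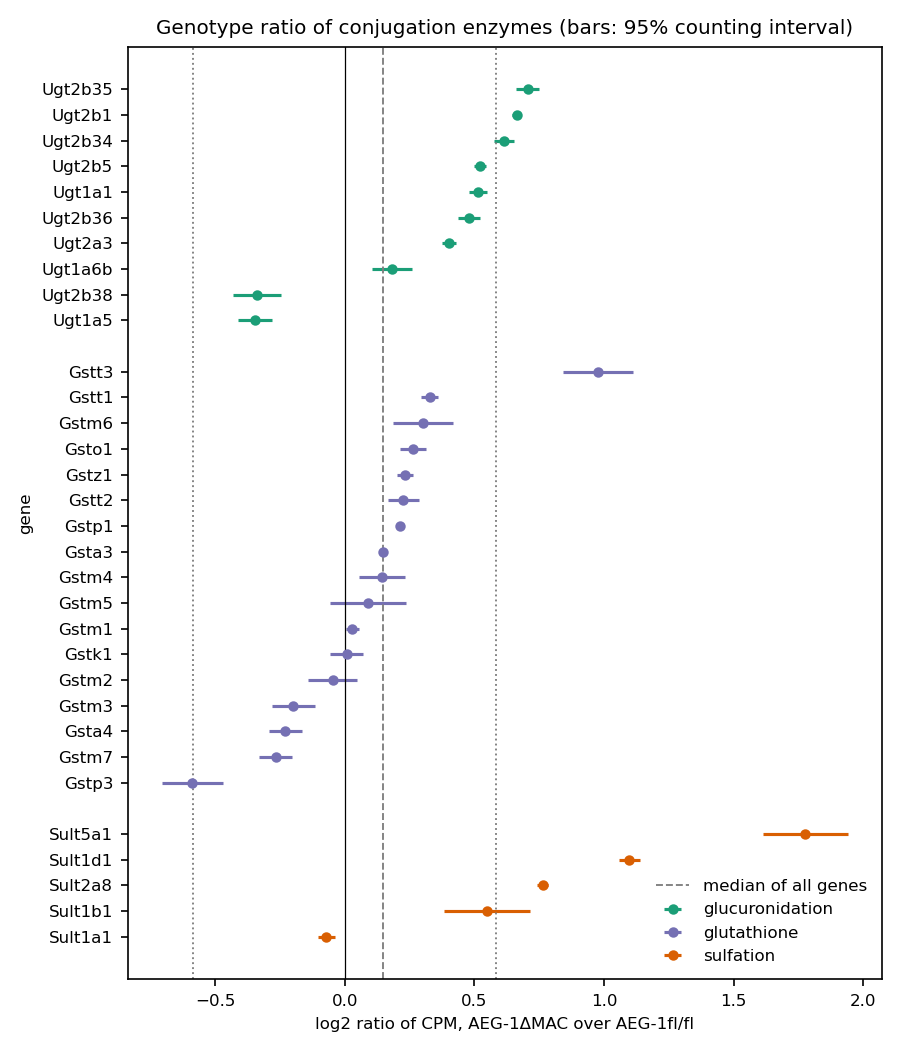
Log2 of the CPM in AEG-1ΔMAC divided by that in AEG-1fl/fl (x axis), for the 32 members of at least 10 CPM (y axis), coloured by family; points are the values of 1 library per genotype, bars are 95% counting intervals, the solid line is 0, the dashed line is the median of all genes (0.15) and dotted lines are 1.5-fold. Glucuronidation genes lie right of the dashed line except Ugt2b38 and Ugt1a5, glutathione conjugation genes lie on both sides of it, and Sult5a1 (1.77) and Sult1d1 (1.10) lie furthest right.

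Genotype ratios were also taken along the chromosomes, since many members lie in clusters. A stretch of chromosome 5 from Ugt2b34 to Sult1e1 held, in order, Ugt2b34, Ugt2b1, Ugt2b35, Ugt2b36, Ugt2b5, Ugt2b37, Ugt2a3, Ugt2b38, Ugt2a1, Sult1b1, Sult1d1 and Sult1e1. Every gene of that stretch above 10 CPM was higher in AEG-1ΔMAC except Ugt2b38, with log2 ratios from 0.40 to 1.10. Of all genes compared, 5431 of 6933 were higher too, and the genes of the stretch are the same ones already counted by family. Whether the cluster moved as a unit was not tested. In the Ugt1a cluster, Ugt1a5 (-0.35) and Ugt1a1 (0.51) were on opposite sides of 0. Ugt1a2, which was under 10 CPM, lies between them (0.27, -0.04 to 0.58). Gstm genes of chromosome 3 ranged from -0.27 to 0.30.

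**Figure D2:**
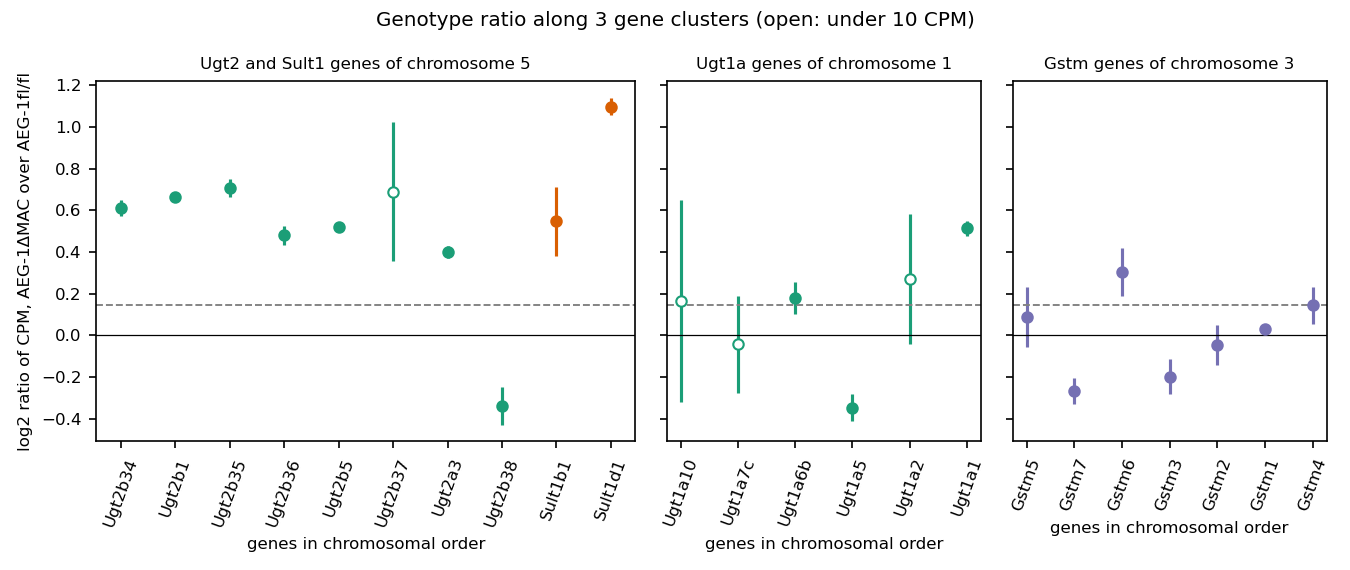
Log2 of the CPM in AEG-1ΔMAC divided by that in AEG-1fl/fl (y axis), for members in chromosomal order (x axis) in 3 clusters, for genes with at least 100 UMIs in the 2 libraries together; open points are under 10 CPM, bars are 95% counting intervals, the solid line is 0 and the dashed line is the median of all genes. On chromosome 5 all genes but Ugt2b38 (-0.34) lie above the dashed line, and the Gstm genes of chromosome 3 lie around it.

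Where the enzymes lay in the lobule was asked separately in each library. Spots were ranked by an index, the scaled level of zone 3 markers (Cyp2e1, Cyp1a2 and Oat) minus that of zone 1 markers (Arg1, Cyp2f2, Gls2, Hal, Hsd17b13 and Pck1), and split into 3 equal parts. No member is in the index. A zone ratio is the log2 ratio of CPM in the zone 3 part over the zone 1 part of the same library, and scaling between libraries does not enter it. In AEG-1ΔMAC 13 of 32 members were at least 1.5-fold higher in the zone 3 part (2.97% of all genes) and 3 were at least 1.5-fold lower there (2.03%). In AEG-1fl/fl the counts were 12 (2.84%) and 2 (1.75%). At 2-fold, 5 members were higher in the zone 3 part (1.07% of all genes) and 2 lower (0.808%) in AEG-1ΔMAC, and 3 were higher (1.01%) and 2 lower (0.433%) in AEG-1fl/fl. The direction was the same in both libraries for 32 of 32 members, compared with 5189 of 6933 genes. Some of these directions are not resolved, since intervals of members such as Gstm5 and Gstt2 included 0 in at least 1 library. Median zone ratios of the members were 0.45 in AEG-1ΔMAC compared with 0.30 in AEG-1fl/fl, beside 0.09 and 0.07 for all genes.

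Mu class genes had the steepest pericentral slopes among the members. Gstm3 rose from 19.9 CPM in the zone 1 part to 81.4 CPM in the zone 3 part of AEG-1ΔMAC, and from 23.4 to 93.3 CPM in AEG-1fl/fl, zone ratios of 2.03 (1.85 to 2.22) and 1.997 (1.83 to 2.16). Gstm2 went from 14.9 to 68.1 CPM and from 17.2 to 67.5 CPM (2.19 and 1.97). The 2 genes did not differ beyond their intervals in either library. Gstm6 had zone ratios of 1.52 and 1.14, Gstm1 of 1.07 and 0.85, and Gstm4 of 0.66 and 0.81. The class was not uniform: Gstm7, at 0.38 and 0.17, was below 1.5-fold, and the intervals of Gstm5 (-0.01 and -0.12) included 0. Gstm2 and Gstm7 were each other's closest relatives, with 85.4% identical coding sequences.

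Of the other glutathione transferases, Gsta3 was pericentral, with 1215 and 2515 CPM in the zone 1 and zone 3 parts of AEG-1ΔMAC and 1194 and 2254 CPM in AEG-1fl/fl (1.05 and 0.92). Gstp1 sloped the other way, from 4134 to 2666 CPM in AEG-1ΔMAC and from 3347 to 2421 CPM in AEG-1fl/fl (-0.63 and -0.47). Gsta4 (-0.22 and -0.16) and Gsto1 (-0.12 and -0.19) leaned to zone 1 as well, with intervals below 0 in both libraries. Gstt1 (0.52 and 0.40), Gstt3 (0.55 and 0.31) and Gstz1 (0.26 and 0.07) leaned to zone 3 by less than 1.5-fold. Gstt2 (0.04 and 0.11), Gstk1 (0.17 and 0.09) and Gstp3 (0.03 and 0.27) had an interval that included 0 in at least 1 library.

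In glucuronidation, Ugt2b1 went from 987.3 CPM in the zone 1 part to 1780 CPM in the zone 3 part of AEG-1ΔMAC and from 686.2 to 1096 CPM in AEG-1fl/fl, zone ratios of 0.85 and 0.68. Ugt1a1 was similarly pericentral (0.84 and 0.78), as were Ugt2b35 (0.67 and 0.73) and Ugt2b34 (0.61 and 0.63). Ugt1a5 had zone ratios of 0.56 and 0.82 and Ugt1a6b of 0.37 and 0.29. Ugt2b5 was level, with 672.8 and 691.3 CPM in AEG-1ΔMAC and 468.6 and 490.2 CPM in AEG-1fl/fl (0.04 and 0.07). Ugt2a3 (0.18 and 0.01) and Ugt2b36 (0.29 and 0.07) had intervals above 0 in AEG-1ΔMAC only. Ugt2b38, the near-identical copy of Ugt2b5 shown above, fell from 60.9 to 20.8 CPM towards zone 3 in AEG-1ΔMAC and from 65.9 to 25.3 CPM in AEG-1fl/fl (-1.55, -1.74 to -1.36, and -1.38, -1.55 to -1.21).

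Sulfotransferases lay at both ends of the lobule. Sult5a1 was periportal, at 42.0 and 13.6 CPM in the zone 1 and zone 3 parts of AEG-1ΔMAC and at 12.8 and 4.10 CPM in AEG-1fl/fl, and its zone ratios of -1.63 and -1.64 were alike although its level differed 3.42-fold (difference 0.02, -0.44 to 0.47). Sult2a8 was pericentral, from 770.2 to 1248 CPM in AEG-1ΔMAC and from 438.8 to 798.7 CPM in AEG-1fl/fl (0.70 and 0.86). Sult1d1 had zone ratios of 0.60 and 0.36 and Sult1b1 of 0.71 and 0.31. Sult1a1 leaned to zone 1 (-0.20 and -0.08).

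**Figure D3:**
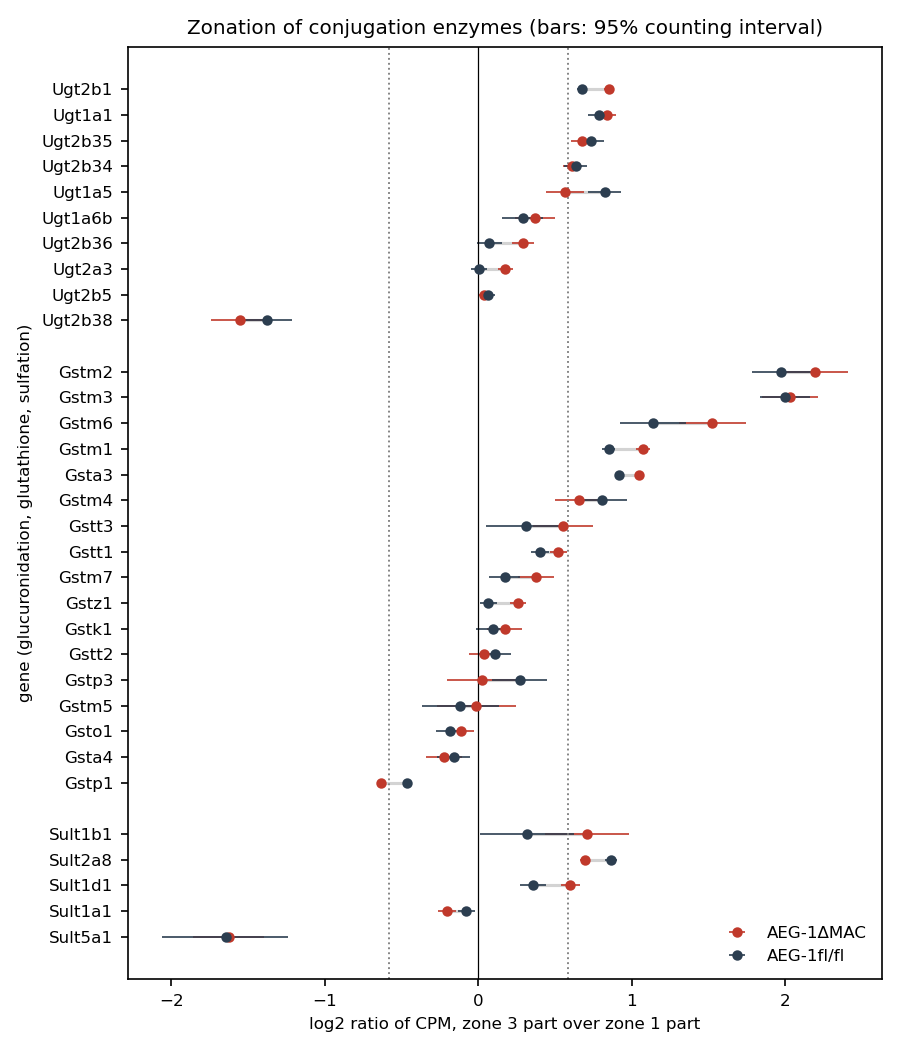
Log2 ratio of CPM, zone 3 part over zone 1 part of the same library (x axis), for the 32 members of at least 10 CPM (y axis, by family); red points are AEG-1ΔMAC, dark points are AEG-1fl/fl, bars are 95% counting intervals, the solid line is 0 and dotted lines are 1.5-fold. Points of both libraries lie on the same side of 0 for all 32 genes, with Gstm2 and Gstm3 near 2 and Sult5a1 and Ugt2b38 between -1.38 and -1.64.

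Finer profiles were taken over 10 equal bins of the ranked spots. Gsta3 and Ugt2b1 were lowest in the first bin and highest in the last in both libraries: Gsta3 went from 967.5 to 2844 CPM in AEG-1ΔMAC and from 1073 to 2577 CPM in AEG-1fl/fl. Ugt2b1 went from 860.3 to 1927 CPM and from 618.5 to 1272 CPM. Gstm3 instead gained most of its level at the central end, where its last bin held 132.9 CPM in AEG-1ΔMAC against 149.2 CPM in AEG-1fl/fl. Gstp1, Ugt2b38 and Sult5a1 were highest in the first bin and lowest in the last in both libraries. Because spots were ranked within each library, a given bin need not cover the same place in both sections.

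**Figure D4:**
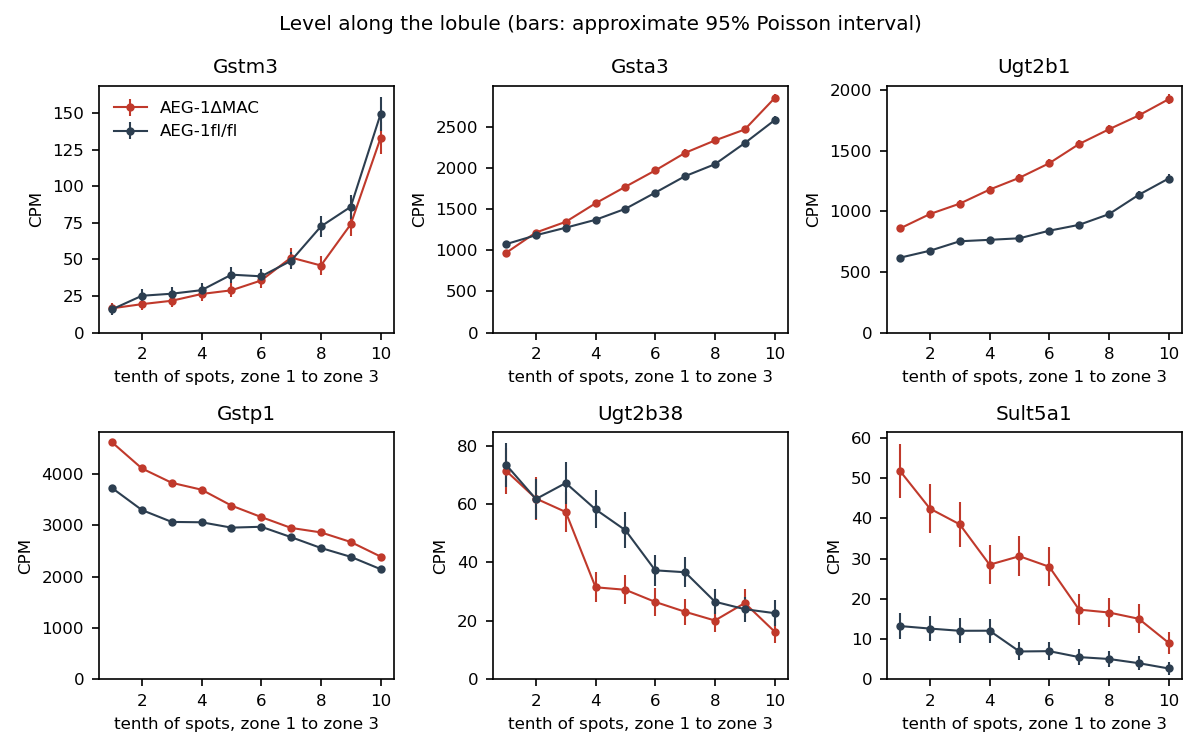
CPM (y axis, from 0) in each of 10 equal bins of spots from zone 1 to zone 3 (x axis) for 6 members; red is AEG-1ΔMAC, dark is AEG-1fl/fl, and bars are approximate 95% Poisson intervals. Gstm3, Gsta3 and Ugt2b1 are highest in the last bin, Gstp1, Ugt2b38 and Sult5a1 in the first, and the Sult5a1 and Ugt2b1 curves of AEG-1ΔMAC lie above those of AEG-1fl/fl throughout.

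Slopes in the 2 libraries were compared by the difference of the zone ratios, AEG-1ΔMAC minus AEG-1fl/fl. Of the 32 members 20 were more pericentral in AEG-1ΔMAC, compared with 3639 of the 6933 genes, and the zone ratio was larger in size there for 21, compared with 3795. Among those with intervals above 0 were Gstm6 at 0.39 (0.09 to 0.69), Sult1d1 at 0.25 (0.14 to 0.35) and Gstm1 at 0.22 (0.16 to 0.28). Ugt2b36 differed by 0.22 (0.11 to 0.33), Gstm7 by 0.20 (0.05 to 0.36) and Gstz1 by 0.19 (0.12 to 0.27). Ugt2b1 differed by 0.18 (0.13 to 0.22), Ugt2a3 by 0.17 (0.10 to 0.24), Gsta3 by 0.13 (0.10 to 0.17) and Gstt1 by 0.12 (0.04 to 0.20). Ugt1a5 (-0.26, -0.42 to -0.10), Sult2a8 (-0.17, -0.22 to -0.11), Gstp1 (-0.17, -0.19 to -0.14) and Sult1a1 (-0.13, -0.21 to -0.04) were more periportal in AEG-1ΔMAC. With 1 section each, such differences cannot be told apart from differences in how a section cuts its lobules.

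Within each part of the lobule, the genotype ratio was on the same side of 0 in all 3 parts for 28 of 32 members (10 of 10, 14 of 17 and 4 of 5 by family), compared with 5223 of the 6933 genes. The exceptions were Gstk1, Gstm1, Gstm2 and Sult1a1, each within 0.21 of 0 in every part. Sult5a1 was 1.71, 1.90 and 1.73 from the zone 1 part through the middle to the zone 3 part. For Sult1d1 the values were 0.94, 1.13 and 1.18. Gstt3 had 0.78, 1.10 and 1.02, and Gstp3 had -0.46, -0.59 and -0.70. Sult2a8 was lower in the zone 3 part (0.64) than in the zone 1 (0.81) and middle parts (0.87).

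**Figure D5:**
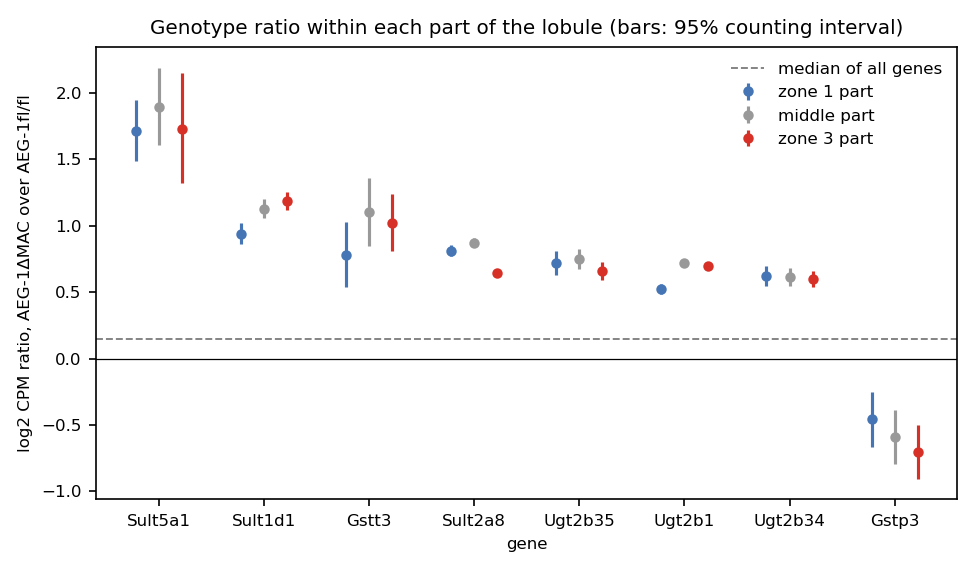
Log2 of the CPM in AEG-1ΔMAC divided by that in AEG-1fl/fl (y axis), within each of the 3 parts of the lobule (zone 1 in blue, middle in grey, zone 3 in red) for the 8 members past 1.5-fold over the whole section (x axis); bars are 95% counting intervals, the solid line is 0 and the dashed line is the median of all genes. Each of the 7 higher genes is above the dashed line in all 3 parts, and Gstp3 is below 0 in all 3.

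Measures other than the members also moved between the libraries. The zone 3 index genes were higher in AEG-1ΔMAC, with summed levels of 8543 CPM against 3498 CPM. Zone 3 landmark genes that are not in the index had a median log2 ratio of 0.63, and zone 1 landmarks had -0.09. On an index scaled over both libraries, 28.0% of the AEG-1ΔMAC section but 13.3% of the AEG-1fl/fl section fell in the most pericentral of 5 strata. More tissue of a zone and more RNA per cell cannot be told apart in such data. Under equal strata 4 members (Gstt3, Sult1d1, Sult2a8 and Sult5a1) were at least 1.5-fold higher instead of 7. The share of all genes past 1.5-fold was not counted under equal strata. The 50 most abundant genes took 44.4% of UMIs in AEG-1ΔMAC compared with 49.7% in AEG-1fl/fl. The summed level of 7 hepatocyte markers was 149488 CPM in AEG-1ΔMAC against 212421 CPM in AEG-1fl/fl, most of it albumin (Alb, 87957 and 141947 CPM). Female-predominant hepatocyte genes summed to 28.4 and 12.2 CPM. Only 1 of them averaged 10 CPM, Cyp2a4, which was past 1.5-fold on the higher side (log2 ratio 1.69). Male-predominant hepatocyte genes summed to 8149 and 10836 CPM, and 0 of 4 were past 1.5-fold. Marker sums of other cells were 574.1 and 640.6 CPM for 5 Kupffer cell genes, 87.3 and 88.2 CPM for 5 cholangiocyte genes, 391.9 and 393.4 CPM for 4 stellate cell genes, and 2.68 and 16.7 CPM for 4 neutrophil genes, of which 1 was at 0 in AEG-1ΔMAC. Among these, 2 of 5 Kupffer cell genes (Marco and Fabp5) were at least 1.5-fold lower in AEG-1ΔMAC, against 1.79% of all genes compared. So was 1 of the 2 cholangiocyte genes that averaged 10 CPM (Sox9). In the Kupffer cell, cholangiocyte and stellate cell lists 0 genes were at least 1.5-fold higher. What part these measures have in the members' ratios was not tested.

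Members were also looked for in spots rich in markers of other cells. The 5% of spots with the most cholangiocyte, Kupffer cell, stellate cell or vessel wall markers were set against the remaining spots, weighted to the same parts of the lobule. Of 256 ratios for the 32 members, 5 were past 1.5-fold with approximate intervals on the same side. That is a smaller share than the 4.73% of such ratios over all genes other than the markers themselves. Of 128 pairs of a member and a marker list, 21 had intervals on the same side in both libraries, and not all of these are named. The same count was not made over all genes, so it has no background beside it and is not read as a result about the members. Ugt2b38 was higher in cholangiocyte-rich spots, at 72.3 against 53.5 CPM in AEG-1ΔMAC (log2 ratio 0.44, 0.20 to 0.67) and 87.4 against 55.5 CPM in AEG-1fl/fl (0.66, 0.46 to 0.85). Its ratio in AEG-1ΔMAC was below 1.5-fold. Gstm2 was lower in Kupffer cell-rich spots, at 17.6 against 28.5 CPM and 17.5 against 26.9 CPM (-0.70 and -0.62). Gstm3 was lower there too (-0.41 and -0.60), by less than 1.5-fold in AEG-1ΔMAC. Within a part of the lobule position still varies, so these ratios may hold part of the lobule's own slope, which was not tested.

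Genes that supply the conjugation reactions were counted in the same way as the enzymes. Of 4 genes for UDP-glucuronic acid supply, 1 was past 1.5-fold: Ugp2, which makes UDP-glucose, had 270.1 CPM in AEG-1ΔMAC against 176.3 CPM in AEG-1fl/fl (log2 ratio 0.62). Ugdh, which oxidises UDP-glucose to UDP-glucuronic acid, was at -0.01, and the list's median was 0.09. With each of the 3 other scalings Ugp2 was below 1.5-fold and that median was below 0. None of 10 glutathione supply and turnover genes and none of 7 PAPS supply and clearance genes was past 1.5-fold, with medians of 0.05 and 0.16. With each of the other scalings the glutathione supply median was below 0 and Ggct, a glutathione turnover enzyme, was past 1.5-fold on the lower side. Gclc, the catalytic subunit of the rate-limiting enzyme of glutathione synthesis, had 281.4 and 377.3 CPM (-0.42). For 4 genes of conjugate export the median was 0.28, and Abcc3, which carries glucuronides into blood, was past 1.5-fold at 120.9 and 79.1 CPM (0.61), though not with the other scalings or under equal strata. None of 3 genes that cleave conjugates was past 1.5-fold (median -0.05).

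Other enzymes of conjugation were counted in the same way. None of 11 methyl-, acetyl- and amino acid-conjugating genes was past 1.5-fold (median 0.30). Neither of the 2 relatives outside the symbol rule that reached 10 CPM, Mgst1 and Ugt3a2, was past it (median 0.31).

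Among 14 regulators 1 was past 1.5-fold, on the higher side, against 4.3% of all genes compared. Nr1i3, which encodes the constitutive androstane receptor (CAR), an activator of many phase II genes, had 175.6 CPM in AEG-1ΔMAC against 108.7 CPM in AEG-1fl/fl (log2 ratio 0.69, 0.64 to 0.74). With each of the 3 other scalings and under equal strata Nr1i3 was below 1.5-fold, and Nr0b2, a repressor of bile acid synthesis with 66.7 and 99.8 CPM (-0.58), was past it on the lower side. Nfe2l2, which encodes NRF2, the activator of genes against electrophiles, had 70.7 and 78.1 CPM (-0.14). The regulators' median was 0.25. Of 6 CAR and PXR targets, 4 were higher and 1 was lower past 1.5-fold, against 4.3% and 1.79% of all genes compared. The higher ones were Alas1, the first enzyme of heme synthesis (310.7 and 21.2 CPM, 3.87), the cytochromes P450 Cyp2c29 (0.74) and Cyp3a11 (0.59), and Abcc3. Cyp2c55 was lower (15.03 and 31.7 CPM, -1.08). With each of the other scalings Cyp3a11 and Abcc3 were below 1.5-fold, and under equal strata Cyp2c29 was too, which leaves Alas1 higher and Cyp2c55 lower. Of 7 NRF2 targets, 0 were higher and 2 were lower past 1.5-fold, against 4.3% and 1.79% of all genes compared. Osgin1, an oxidative stress response gene, had 161.7 and 328.9 CPM (-1.02), and Hmox1, which degrades heme, had 13.2 and 22.02 CPM (-0.73). None of 5 AhR targets reached 10 CPM, and their summed level was 16.8 CPM in AEG-1ΔMAC against 9.32 CPM in AEG-1fl/fl (0.85, 0.68 to 1.02). The activity of CAR, PXR, NRF2 and AhR was not tested. The CAR and PXR targets had a median zone ratio of 0.92 in AEG-1ΔMAC compared with 0.86 in AEG-1fl/fl.

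Promoter sequences in RefSeq were found for 47 of the 53 members, and 29 of the 32 members of at least 10 CPM had 38 promoters of 300 bases. Letters of 4 motifs were searched on both strands, with N for any base. CTTTGA (TCF/LEF core) was in 15.8% of these promoters and in 16.0% of all 32851 mouse promoters in the table. For TGACNNNGC (antioxidant response element core) the shares were 7.89% and 12.4%, for GCGTG (xenobiotic response element core) 21.1% and 32.4%, and for GTTAAT (part of the HNF1 site) 13.2% and 7.10%. Some members had more than 1 promoter with overlapping windows, so 1 site can be counted more than once, as for GCGTG in Gstm1. A match describes letters in a window and is not a binding site, and shares of so few promoters are given as a description.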

How the data were processed

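Liver sections were profiled by the authors with Visium for FFPE tissue, 1 library per genotype, with groups taken from the genotype labels. The authors processed reads with Space Ranger 2.0.1 against mm10 and deposited raw UMI counts per gene and spot, with no normalisation. UMIs remove PCR copies. By the filter the study states, spots with over 50000 UMIs, under 100 genes or over 7000 genes were removed, which took out 9 of 2149 and 3 of 2543 deposited spots. The study gives the deposited numbers as those left after this filter, so these few spots were kept there. Counts were summed per library and scaled to CPM. Poisson and conditional binomial (Clopper-Pearson) 95% intervals were exact, and those of zone differences and marker-rich spots were approximate. A difference was counted when at least 1.5-fold with its interval on the same side, for genes averaging 10 CPM or more. Every member of at least 10 CPM was named with values, and so were pathway genes past 1.5-fold. Some further genes, such as Ugdh, Gclc, Ggct, Nfe2l2, Nr0b2, Gstp2 and Gsto2, were named after their values were seen. Members and lists were chosen with earlier results of these data known. Libraries shared 1782 spot barcodes, which mark positions on a capture area. Positions and coding sequences came from GENCODE M21 (GRCm38) and promoters from RefSeq. Python 3.11.15, NumPy 2.4.6, SciPy 1.17.1 and edgeR 4.0.16 (TMM factors only) were used, and scripts were tested on simulated data.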

Additional observations from a re-analysis of the deposited data

Results flagged for a closer look

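Gstm1 had a genotype log2 ratio of 0.091 in the zone 3 part and -0.13 in the zone 1 part, opposite sides of 0 in the 2 parts of the lobule. The difference was not tested, since each genotype had 1 section, and the signs depend on the scaling between libraries.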

How the results depend on the processing

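No paired analysis was possible because each genotype had 1 library, and leaving out a replicate was not possible for the same reason. Depth limits genes under 10 CPM, and the scaling limits every statement on a small ratio. Other scalings (TMM factors, median-of-ratios size factors, and totals without the 50 most abundant genes) moved the median of all genes from 0.15 to 0.02, 0.02 and 0.00. With each of them 4 members were at least 1.5-fold higher instead of 7, and the family medians became, in that order, 0.37, 0.37 and 0.35 for glucuronidation, 0.021, 0.015 and 0.0025 for glutathione conjugation, and 0.64, 0.63 and 0.62 for sulfation. Under equal zone strata 4 members were higher and 2 lower (Gstp3 and Gstm3), with family medians of 0.41, -0.014 and 0.59, so that the glutathione median reversed. The share of all genes past 1.5-fold was not counted with the other scalings or under equal strata, so these counts have no background beside them. At a ratio of at least 2, 2 members were higher (1.27% of all genes) and 0 lower (0.519%) between genotypes. Sult5a1, which is in this count, reached 10 CPM only through AEG-1ΔMAC. Members at least 2-fold higher in the zone 3 part numbered 5 instead of 13 in AEG-1ΔMAC (1.07% of all genes). In AEG-1fl/fl they numbered 3 instead of 12 (1.01%). The count of lower members was 0 when the CPM of each spot was averaged, 2 with a mean of at least 1 CPM (Gstp2 added) and 0 with at least 50 CPM. Over all settings the genotype ratio kept its sign for 25 of 32 members, the exceptions being Gsta3, Gstk1, Gstm1, Gstm2, Gstm4, Gstm5 and Gstm6, and the zone ratio for 60 of 64 values, the exceptions being those of Gstm5 in both libraries, Gstt2 in AEG-1ΔMAC and Ugt2a3 in AEG-1fl/fl. The cause of these changes was not tested.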
